A study of Mus musculus with 2 samples.

Results

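The CC chemokines are small secreted proteins that attract leukocytes, and the genes described here are 9 CC ligands of the mouse (Ccl2, Ccl3, Ccl4, Ccl5, Ccl6, Ccl7, Ccl8, Ccl9 and Ccl11) with 1 receptor, Ccr1. They were taken as a fixed list of 10 genes, and each gene was read through the probe sets whose annotation names that gene alone. This gave 13 probe sets on each array, 2 each for Ccl6, Ccl9 and Ccr1 and 1 for each of the other 7 genes. The whole table holds 12393 genes read in the same way. RNA came from primary calvarial osteoblasts, the bone-forming cells of the skull vault, of C57Bl/6 mice aged 4 to 5 days. The study put 1 array on cells of Col1-Dlk1 mice, which overexpress Dlk1 from a transgene whose name gives Col1 as its driver, and 1 array on cells of wild type littermates. Each array holds 3 cultures combined, so no value below has a replicate and no spread between cultures is known. The Col1-Dlk1 cells were also sorted by flow cytometry to enrich Dlk1-positive cells. No source used here says whether the wild type cells were sorted, so genotype and sorting cannot be told apart.

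CC ligands carry a pair of adjacent cysteines, bind heparan sulfate on cells and matrix, and signal through seven-pass receptors coupled to inhibitory G proteins. Ccl3, Ccl5, Ccl6, Ccl7 and Ccl9 are ligands of Ccr1, which monocytes, macrophages and osteoclast precursors carry. Ccl2 and Ccl7 act mainly on the monocyte receptor Ccr2, and Ccl11 on the eosinophil receptor Ccr3. In bone, osteoblasts and macrophages are both known sources of CC ligands, and osteoclasts are known for making Ccl9.

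The targeted gene, Dlk1, went against the labels. Its 1 probe set had an intensity of 26.5 in the Col1-Dlk1 sample and of 306 in the wild type sample (log2 difference -3.08). No source used here says whether that probe set detects the transcript of the transgene. All directions below therefore follow the labels alone, and an exchange of labels would invert each of them. The sample that carries the Col1-Dlk1 label is written as the array labelled Col1-Dlk1, and the other as the wild-type array. Both arrays share a scale, their mean intensities being 150.06 and 150.07 once 2% of values at either end were dropped. Of the osteoblast markers, the collagen gene Col1a1 (1772 and 1462 on the Col1-Dlk1 and wild-type arrays) and the matrix gene Sparc (7535 and 4818) were bright on both arrays. The osteoblast transcription factor gene Sp7, the alkaline phosphatase gene Alpl and the bone sialoprotein gene Ibsp lay below the level threshold defined below on both.

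The letters around the transcription start, which hold the core promoter, are shown for Ccl3, Ccl8 and Ccl9, ligands called higher below, and for Ccr1 as the receptor, which was not called. Of the 10 genes, 5 matched an entry of the RefSeq promoter table (GRCm38.p6), which covers 250 bases before and 50 bases after the start: Ccl3, Ccl6, Ccl8, Ccl9 and Ccr1. The strand and position were chr11:83649329-83649628 (minus) for Ccl3, chr11:82114935-82115234 (plus) for Ccl8, chr11:83578587-83578886 (minus) for Ccl9 and chr9:123968643-123968942 (minus) for Ccr1. Capitals mark matches, on either strand, to the letters TATAAA (the box of core promoters), TGANTCA (AP-1), GAGGAAG (PU.1) and the NF-kB pattern of GGG, any 5 bases and CC. The interferon regulatory factor pattern, a pair of GAAA with any 2 bases between, was also searched.
Ccl3: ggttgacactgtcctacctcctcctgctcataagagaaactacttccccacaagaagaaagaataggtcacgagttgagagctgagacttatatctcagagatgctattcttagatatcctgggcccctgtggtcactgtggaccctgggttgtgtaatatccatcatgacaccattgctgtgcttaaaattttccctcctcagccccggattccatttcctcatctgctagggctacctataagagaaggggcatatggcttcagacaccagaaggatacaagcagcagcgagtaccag
Ccl8: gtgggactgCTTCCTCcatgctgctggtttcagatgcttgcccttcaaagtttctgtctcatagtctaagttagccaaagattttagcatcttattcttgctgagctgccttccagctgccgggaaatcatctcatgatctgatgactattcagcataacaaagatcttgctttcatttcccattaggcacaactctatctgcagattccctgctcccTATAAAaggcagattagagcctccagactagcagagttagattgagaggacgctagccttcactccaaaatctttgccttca
Ccl9: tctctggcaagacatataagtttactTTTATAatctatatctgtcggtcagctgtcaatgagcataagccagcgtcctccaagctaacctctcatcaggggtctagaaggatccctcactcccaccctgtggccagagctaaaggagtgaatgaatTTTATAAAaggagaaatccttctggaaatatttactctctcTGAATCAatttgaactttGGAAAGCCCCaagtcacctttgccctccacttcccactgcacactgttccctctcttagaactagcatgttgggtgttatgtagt
Ccr1: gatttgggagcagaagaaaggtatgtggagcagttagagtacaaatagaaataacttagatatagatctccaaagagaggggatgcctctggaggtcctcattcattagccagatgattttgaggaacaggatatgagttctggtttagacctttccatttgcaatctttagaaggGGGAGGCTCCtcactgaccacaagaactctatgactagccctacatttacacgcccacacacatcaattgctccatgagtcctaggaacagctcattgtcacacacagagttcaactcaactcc

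The window of Ccl8 held TATAAA at position -32 from the start, and that of Ccl9 held it at position -92 on the coding strand and at positions -224 and -94 on the other. TATAAA stood in 13.6% of all 32851 promoter windows of this length. The AP-1 letters stood at position -53 of Ccl9, as in 7.81% of all windows, and the PU.1 letters on the other strand at position -241 of Ccl8, as in 13.6%. The loose NF-kB pattern matched at position -35 of Ccl9 on the other strand and at position -74 of Ccr1, and 50.8% of all windows held it. The 2 matches of TATAAA at positions -94 and -92 of Ccl9 overlap. The interferon pattern, present in 3.44% of all windows, matched none of the 5, and neither Ccl3 nor Ccl6 held any of the 5 patterns. These are matches of letters and say nothing of binding. The GC content of the 5 windows was 43.7% to 48.0%, against a median of 52.7% over all windows.

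Ligands of the macrophage inflammatory protein group, Ccl3, Ccl4 and Ccl9, were 10.9-fold to 14.1-fold higher in the sample labelled Col1-Dlk1, and Ccl8 was 4.37-fold higher. Ccl2 and Ccl7, the monocyte-attracting ligands, read high on both arrays and stayed within 2-fold, while Ccl5, Ccl6 and Ccl11 were dim on both. Folds were taken on log2(intensity + 10.96), with the 25th percentile of the table as pseudocount. For dim genes the pseudocount draws the folds nearer to no change than the plain ratios. The level threshold was 42.8, the median of the table, to be reached on the brighter array. A gene above it that also differed by 2-fold or more was called. Of the 10 genes, 6 passed the threshold, 4 were called higher (Ccl3, Ccl4, Ccl8 and Ccl9), 0 lower and 2 lay within 2-fold. By gene average the 4 called genes were all below the threshold on the wild-type array. Each thus passed only through the array on which it was higher. Over all 6795 genes that passed, 9.39% were called higher and 7.11% lower. The median log2 difference of the 10 genes was 1.19, beside 0.015 over all 12393 genes. That median lies between Ccr1 (1.18) and Ccl6 (1.20), both below the threshold and not called. The list was also chosen with earlier results of these data known. With 1 array per genotype these calls are a rule of size with no test, and they describe the 2 arrays.

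**Figure D1:**
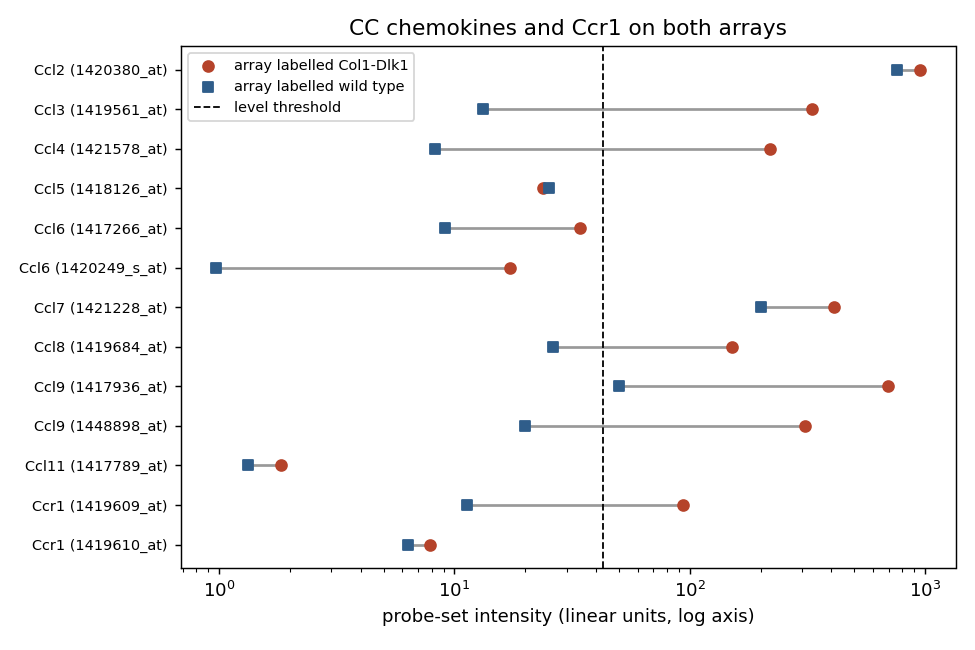
Intensity of each of the 13 probe sets (log axis, linear intensity units) on the array labelled Col1-Dlk1 (circles) and the wild-type array (squares), 1 array each, with the level threshold of 42.8 as a dashed line. Ccl3, Ccl4, Ccl8, 1 of 2 probe sets of Ccl9 and 1 of 2 of Ccr1 cross the threshold between the arrays, and Ccl2, Ccl7 and the other probe set of Ccl9 lie above it on both.

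Ccl3 (macrophage inflammatory protein 1 alpha), a ligand of Ccr1, read 13.2 on the wild-type array and 330 on the array labelled Col1-Dlk1. The plain ratio was 25.03. With the pseudocount the log2 difference was 3.82, the largest among the 10 genes at that setting. Only 0.780% of level-passing genes had a difference as high or higher, which put Ccl3 at rank 53 counted from the highest. Its wild-type reading lay near the pseudocount itself, so the size of the fold depends on that choice. With a pseudocount of 42.8 the log2 difference was 2.73.

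Ccl4 (macrophage inflammatory protein 1 beta), the ligand encoded next to Ccl3, read 220 against 8.26, where in this and later pairs of intensities joined by "against" the first is from the array labelled Col1-Dlk1. Its plain ratio was 26.7 and its log2 difference 3.59, at rank 63. In the wild-type sample Ccl3 and Ccl4 both fell short of the level threshold, so the plain ratios rest on readings near the pseudocount and are not compared with each other. With a pseudocount of 42.8 the log2 difference of Ccl4 was 2.37. The RefSeq spans of these neighbouring genes overlap.

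Ccl9 (macrophage inflammatory protein 1 gamma), a Ccr1 ligand, was read by 2 probe sets. The probe set 1417936_at read 50.2 on the wild-type array and 698 on the one labelled Col1-Dlk1. The probe set 1448898_at read 19.9 and 308 in the same order. Both gave the same direction and nearly the same size, with log2 differences of 3.54 and 3.37 and an average of 3.45, at rank 73. Their gap of 0.17 lay below the median gap of 0.41 over 12821 pairs of probe sets that name the same gene. Probe sets repeat a measurement on the same RNA and are not replicates of a genotype.

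Ccl8 (monocyte chemoattractant protein 2), which attracts monocytes and, in the mouse, cells with Ccr8, read 151 against 26.1. The plain ratio was 5.78 and the log2 difference 2.13, at rank 211, with 3.11% of level-passing genes at or above it. Ccr8 itself was dim on both arrays, at 2.11 against 1.96.

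**Figure D2:**
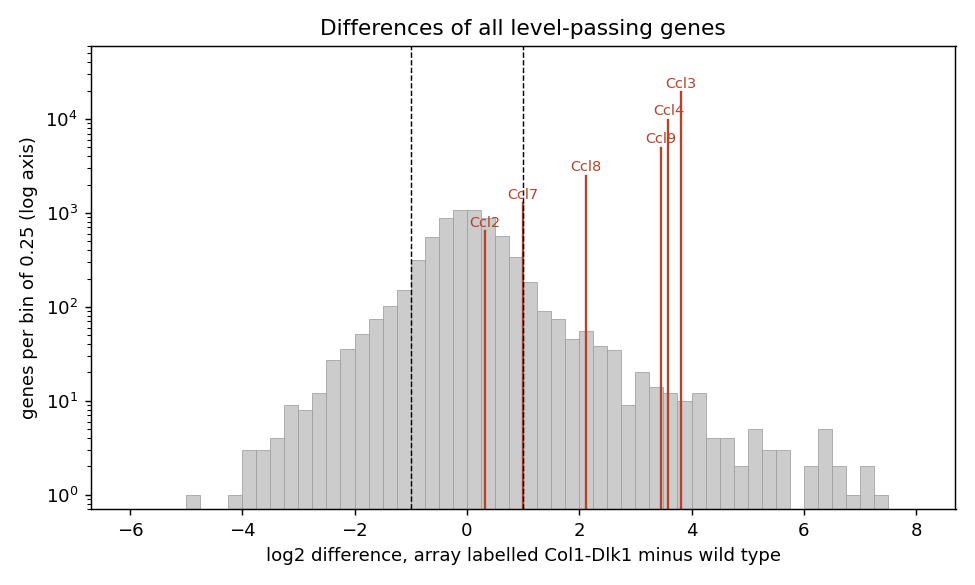
Number of level-passing genes (log axis) in bins of 0.25 of the log2 difference between the arrays, with the 6 level-passing CC ligands marked by lines and the 2-fold limits dashed. Ccl3, Ccl4 and Ccl9 stand in the upper tail, Ccl7 stands at the limit and Ccl2 stands among the bulk of genes.

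Ccl2 (monocyte chemoattractant protein 1), the main ligand of Ccr2, read 763 on the wild-type array and 955 on the one labelled Col1-Dlk1. Its plain ratio was 1.25 and its log2 difference 0.32, and 31.5% of level-passing genes differed as much or more in that direction. Ccl7 (monocyte chemoattractant protein 3) read 411 against 201, with a ratio of 2.04 and a log2 difference of 0.99. It lay just inside the 2-fold limit, and under loess scaling or a pseudocount of 1 it passed the limit, at 1.02 and 1.03. By gene average, these 2 ligands were the only ones of the 10 genes to reach the level threshold on both arrays. Their receptor gene Ccr2 was below the threshold on both arrays in all of its 3 probe sets, the highest reading being 21.5, on the wild-type array.

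Ccl5 (RANTES), a ligand of Ccr1 made by T cells among others, read 23.8 against 25.1, a log2 difference of -0.054. It was the 1 gene of the 10 with a lower reading on the array labelled Col1-Dlk1, and both readings lay below the level threshold. Ccl11 (eotaxin), which attracts eosinophils, read 1.83 against 1.33. Ccl6, a myeloid ligand of Ccr1, was higher in both of its probe sets but below the threshold in each. The probe set 1417266_at read 34.0 against 9.13, and 1420249_s_at read 17.2 against 0.97. Their average log2 difference was 1.20, and under the level rule Ccl6 was not called. That difference depended on the pseudocount, being 0.51 with a pseudocount of 42.8 and 2.50 with one of 1.

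Ccr1, the receptor of Ccl3, Ccl5, Ccl6, Ccl7 and Ccl9, was read by 2 probe sets that gave unlike answers. The probe set 1419609_at read 11.3 on the wild-type array and 93.9 on the one labelled Col1-Dlk1, a log2 difference of 2.24. The probe set 1419610_at read 6.32 and 7.89 in the same order, a difference of 0.13, and was below the level threshold on both arrays. The gap of 2.11 between them was matched or exceeded by 141 of the 12821 pairs that name the same gene. Their average gave intensities of 8.64 and 33.5 and a difference of 1.18, below the level threshold, so Ccr1 was not called. When each gene was read by its brightest probe set instead, Ccr1 was called higher and the count went from 4 to 5 of 10, beside 10.1% of 7365 level-passing genes under that rule. The level-passing genes nearest to the averaged Ccr1 difference were Ccpg1, Rora and Hexa, all at 1.18, a likeness that rests on 2 arrays only.

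**Figure D3:**
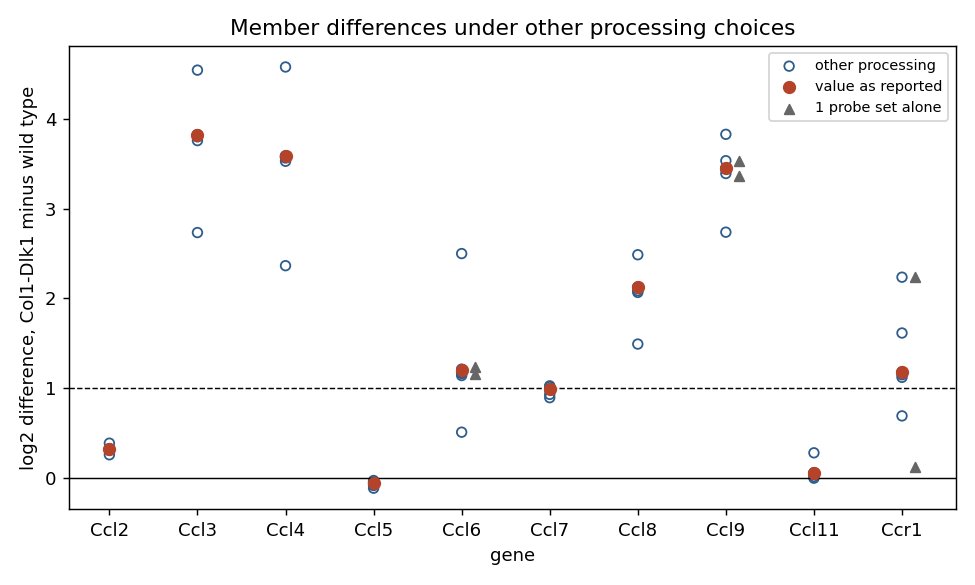
Log2 difference of each of the 10 genes, Col1-Dlk1 label minus wild-type label, as reported (filled circles), under other scalings, pseudocounts and probe-set rules (open circles) and for single probe sets of Ccl6, Ccl9 and Ccr1 (triangles). Ccl3, Ccl4, Ccl8 and Ccl9 stay above the dashed 2-fold limit at every setting plotted, and Ccr1 spans 0.13 to 2.24.

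The 9 ligand genes lie on chromosome 11 in 2 stretches, and Ccr1 lies on chromosome 9. In RefSeq order the first stretch is Ccl2, Ccl7, Ccl11, Ccl12, Ccl8 and Ccl1, and the second is Ccl5, Ccl9, Ccl6, Ccl3 and Ccl4. Within each stretch 0 other protein-coding genes lie between neighbours, and 25 lie between Ccl1 and Ccl5. In the second stretch 3 of 5 genes were called higher and the other 2, Ccl5 and Ccl6, were below the level threshold. In the first stretch 2 of 6 were called higher, Ccl12 and Ccl8. Ccl2 and Ccl7 lay within 2-fold there, and Ccl11 and Ccl1 below the threshold. The share called higher over all level-passing genes was 9.39%. Ccl12 (monocyte chemoattractant protein 5), a mouse ligand of Ccr2, read 112 against 1.05, a log2 difference of 3.36. Genes of the same stretch thus differed between the arrays by unlike amounts, with Ccl2 at 0.32 and Ccl12 at 3.36.

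**Figure D4:**
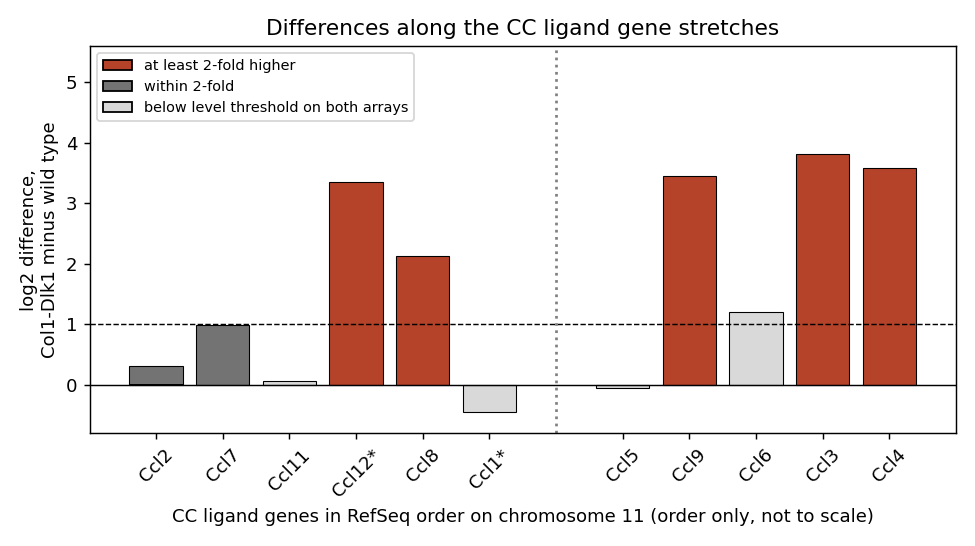
Log2 difference of each CC ligand gene on chromosome 11 in gene order, with the gap between the 2 stretches dotted, genes outside the list of 10 starred and the 2-fold limit dashed. Ccl12 and Ccl8 in the first stretch and Ccl9, Ccl3 and Ccl4 in the second pass the limit and the level threshold.

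Outside the 10 genes, few CC ligands or receptors were bright enough to call. Of 9 other CC ligands measured, 1 was called higher (Ccl12), 1 lower (Ccl25) and 7 were below the threshold, with a median of 0.032. The shares over all level-passing genes were 9.39% higher and 7.11% lower. Ccl25, which attracts gut-homing lymphocytes and thymocytes, read 4.70 against 45.3, a log2 difference of -1.85. Of 13 other CC receptors measured, 1 was called higher, 1 was within 2-fold and 11 were below the threshold, with a median of 0.00072. The one called higher was Ccrl2, a receptor-like protein that binds chemerin without signalling in the usual way, which read 220 against 22.6 (2.79). Ackr1, a decoy receptor that binds CC and CXC ligands, differed by -0.50. Ccl19, Ccl21a and Ccl26 were not analysed here.

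Most genes that carry the signal from chemokine receptors to the cytoskeleton lay within 2-fold. Of 22 measured, 6 were called higher, 1 lower, 13 within 2-fold and 2 below the level threshold, with a median of 0.22, beside the 9.39% and 7.11% called higher and lower over all level-passing genes. Rgs1, which shortens signalling by inhibitory G proteins, read 994 against 1.41 (6.34), and the kinase gene Ptk2b read 184 against 1.44 (3.97). Arrb2, a beta-arrestin that takes receptors out of signalling, differed by 2.64 over 2 probe sets. The haematopoietic GTPase gene Rac2 differed by 2.37, its exchange factor gene Dock2 by 2.30 and Elmo1 by 2.33. Gnai1, an inhibitory G protein subunit, read 72.6 against 247 and was the 1 called lower, at -1.62.

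Cytokines and sensors that induce CC ligands had 5 of 19 called higher, 1 lower, 7 within 2-fold and 6 below the level threshold. Their median was 0.59, and the shares called over all level-passing genes were 9.39% higher and 7.11% lower. The cytokine gene Tnf read 242 against 1.71 (4.32), the endotoxin co-receptor gene Cd14 read 805 against 32.6 (4.23) and the sensor gene Tlr2 read 235 against 35.2 (2.41). Il1b (1.83) and Il4ra (1.08) were the other 2 called higher. Il1r1, the interleukin-1 receptor through which stromal cells answer Il1b, was called lower at 49.5 against 225 (-1.96).

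Regulators of chemokine transcription and mRNA decay had 9 of 24 called higher, 1 lower, 12 within 2-fold and 2 below the level threshold. Their median was 0.49, beside 9.39% called higher and 7.11% lower over all level-passing genes. Cebpa (2.73), Irf8 (2.55) and Spi1 (2.17), transcription factors of the myeloid lineage, were among those called higher, Spi1 being the gene of PU.1. Fos, a subunit of AP-1, read 3699 against 581 (2.65). Zfp36, which promotes decay of mRNAs with AU-rich elements, read 1065 against 249 (2.05). Of the NF-kB subunits, Rela was called higher at 1.03, just past the 2-fold limit, and Rel lower at -1.37. Nfkb2 (-0.0089) and Relb (-0.19) lay within 2-fold, while Nfkb1 was not analysed here.

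Most markers of macrophages lay in the direction of the 4 CC ligands called higher, Ccl3, Ccl4, Ccl8 and Ccl9. Of 22 measured, 20 were called higher, 0 lower, 1 within 2-fold and 1 below the level threshold, with a median of 4.79. Among all level-passing genes, 9.39% were called higher and 7.11% lower. The marker intensities summed to 24957 in the sample labelled Col1-Dlk1 and to 346 in the wild type sample. None of the markers was at 0 on either array. C1qa, a subunit of complement C1q, read 2012 against 1.74 and the macrophage receptor gene Adgre1 read 943 against 14.3. Cd163, a haemoglobin scavenger receptor, read 10.2 against 10.1 and lay below the threshold on both. Wild-type readings of the 22 markers ranged from 1.16 to 44.2. The part of macrophage RNA in the differences of the CC ligands was not tested, and with pooled cultures fewer cells of a type and less RNA per cell cannot be told apart.

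Markers of other blood and vessel cells were dim, while the fibroblast and stromal markers were not. Beside the counts that follow, 9.39% of all level-passing genes were called higher and 7.11% lower. Of 13 neutrophil and mast cell markers and 10 lymphocyte markers, 0 reached the level threshold on either array, and of 10 endothelial markers 1 did, Egfl7 at -0.88. Osteoclast markers had 2 of 9 called higher, Acp5 (an acid phosphatase) at 2.00 and Ctsk (a collagen-degrading protease) at 1.21. Of the rest, Nfatc1 lay within 2-fold at 0.89 and 6 were below the threshold. Their intensities summed to 838 against 387. Osteoblast markers had 1 of 13 called higher, the homeobox gene Msx2 at 3.58, and 1 lower, the matrix gene Omd at -1.31. A further 3 lay within 2-fold and 8 were below the threshold. The sums of 16180 against 13569 came mostly from Sparc, Col1a2 (6261 against 7071) and Col1a1. Fibroblast and stromal markers had 3 of 9 called lower, the matrix gene Postn (-2.78), the progenitor antigen gene Cd34 (-2.43) and the growth factor receptor gene Pdgfra (-1.81). The other 6 lay within 2-fold, from Vim at -0.22 to Lum at 0.91, and the median of the list was 0.21. Their intensities summed to 11662 against 14996, of which Postn alone gave 609 against 4232.

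**Figure D5:**
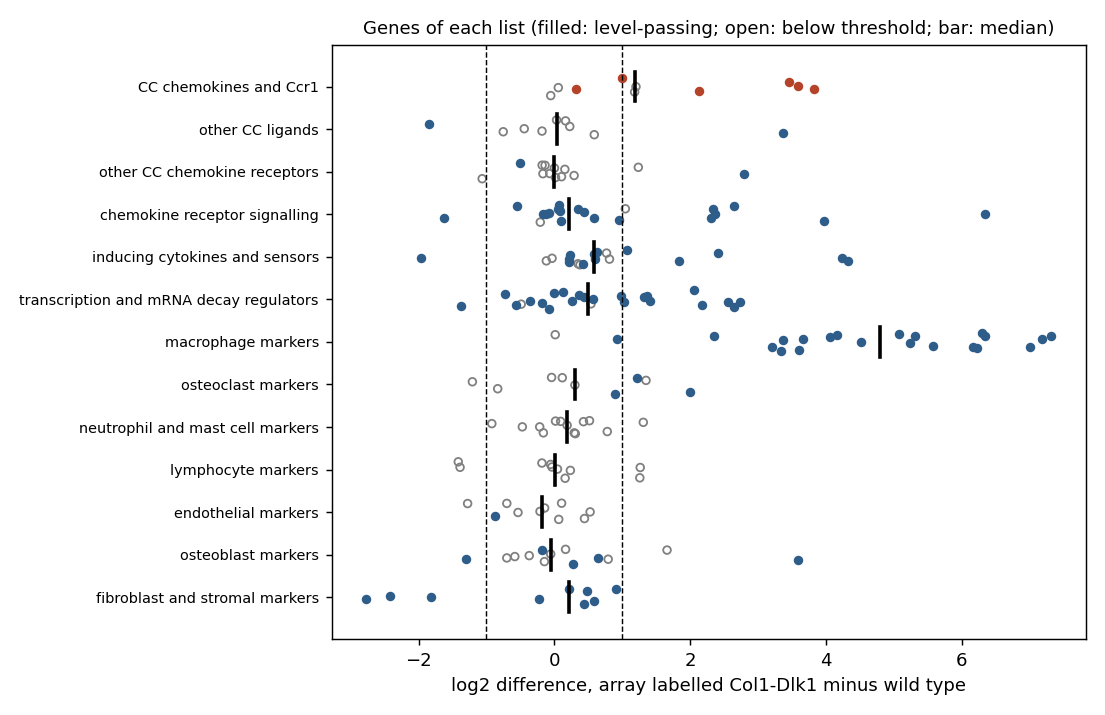
Log2 difference of every measured gene in each list, Col1-Dlk1 label minus wild-type label, with level-passing genes filled, genes below the level threshold open, list medians as bars and the 2-fold limits dashed. The CC chemokines with Ccr1 have a median of 1.19, the macrophage markers one of 4.79, and the neutrophil, mast cell and lymphocyte markers hold only open points.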

How the data were processed

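Probe-set intensities on a linear scale were deposited by the authors, and the submitters' processing notes name Affymetrix Expression Console 1.1.1 as the tool. No source used here gives the algorithm, scaling target or genome build. The table holds 22690 probe sets, 64 of them controls, which were left out of gene values. Of the others, 20380 name 1 gene, 691 several and 1555 none here, and 20351 of the single-gene annotations matched a RefSeq gene ID, which gave current symbols. Probe sets of a gene were averaged as log2(intensity + 10.96) and turned back to the linear scale for printing. Differences are Col1-Dlk1 minus wild type.

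Text names all 10 genes, up to 4 level-passing genes with the largest absolute difference from each comparison list, the 3 genes nearest to Ccr1 and Dlk1. Other genes of the lists (such as Ccr2, Ccr8, Gnai1, Dock2, Elmo1, Il1b, Il4ra, Zfp36, Rela, Rel, Adgre1, Cd163, Sp7, Alpl and Ibsp) were named after their values were seen. The 10 genes and the lists were chosen with earlier results of these data known. Alternatives covered scaling (median centring, quantile, loess with a span of 0.3), pseudocount, level filter, fold and probe-set rule. The steps were tested on simulated data. Scripts ran in Python 3.11.15 (pandas 2.3.3, numpy 2.4.6, statsmodels 0.14.6, matplotlib 3.10.9).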

Additional observations from a re-analysis of the deposited data

How the results depend on the processing

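The count of CC chemokines and Ccr1 called higher was 4 as reported and ranged from 3 to 6 over 11 alternatives, and the count called lower was 0 in each. The count was 3 with the level filter at the 75th percentile, which left out Ccl8, and 6 with no level filter, which added Ccl6 and Ccr1. The share called higher among all genes that pass each filter, 9.39% as reported, was 10.7% and 7.62% under these 2 settings. The count was 5 with loess (9.58% of such genes), a pseudocount of 1 (11.8%) or a 1.5-fold limit (19.2%), each of which added Ccl7, and 5 with the brightest probe set (10.1%), which added Ccr1. The count stayed 4 with median centring (8.48% of such genes), quantile normalization (8.93%) and a pseudocount at the median (6.03%). A 4-fold limit (3.53%) and the inclusion of probe sets that name several genes (9.45%) also gave 4. Log2 differences ranged from 2.73 to 4.54 for Ccl3, from 2.37 to 4.58 for Ccl4, from 2.74 to 3.83 for Ccl9 from 1.49 to 2.49 for Ccl8 and from 0.51 to 2.50 for Ccl6, the ends coming from the pseudocount. Ccl4 exceeded Ccl3 with a pseudocount of 1. Scaling moved the median of all genes by less than 0.1 log2 units. No paired analysis was possible because there is only 1 sample per group, so leaving out a replicate could not be done either. Dim probe sets limit what can be said of Ccl5, Ccl6 and Ccl11.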
